A study of Saccharomyces cerevisiae with 4 samples.

Results

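Peroxisomes are single-membrane organelles that take up folded enzymes from the cytosol, and in budding yeast they are the site of fatty acid oxidation. The described set holds the genes that build and feed them, 39 of the 5449 *S. cerevisiae* genes measured. They were chosen by gene symbol and not by a cutoff on measured values, but with earlier results of these data known. The set takes every *PEX* symbol followed by a number in the probe table of the array, together with *POX1*, *FOX2*, *POT1*, *FAA2*, *PXA1*, *PXA2*, *ECI1*, *DCI1*, *TES1*, *SPS19*, *ANT1*, *OAF1*, *PIP2* and *ADR1*. Each of the 39 was read by 1 probe set. Of the 39, 16 are import factors, 9 act in peroxisome division, size and number, 8 are oxidation enzymes, 3 are transporters and 3 are transcription factors. Other *PEX* genes were not analysed here.

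In yeast, peroxins encoded by the *PEX* genes recognise a targeting signal on a matrix enzyme, dock it at the membrane, bring it across and return the receptor to the cytosol after ubiquitination. The enzymes brought in shorten fatty acids by repeated rounds of oxidation. Oleate induces many of these genes through the Oaf1-Pip2 activator and glucose represses them, while Adr1 activates many of them when glucose is used up.

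The tested cultures were W303-1A carrying pCM189::RECQL5-FLAG, in which a tet promoter drives the human DNA helicase RECQL5, a protein without a yeast ortholog (3 arrays, RECQL5). The control culture was W303-1A with empty pCM189 (1 array, WT). Every culture was a *MATa* haploid with a mutant *LEU2* gene and the alleles *ura3-1*, *trp1-1*, *his3-11,15*, *can1-100* and *ade2-1*, and it was sampled in exponential growth on 2% glucose without uracil, where the study states that no doxycycline was added and the promoter was on. Total RNA was hybridised to 1 Affymetrix array per culture, and the values are RMA log2 levels. WT had no replicate, so the spread in every test below comes from the RECQL5 arrays alone, and a trait of the single WT culture and an effect of RECQL5 cannot be told apart. Fewer cells carrying a transcript and less transcript per cell cannot be told apart either.

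Over the 4128 genes tested, pairs of RECQL5 arrays had Pearson's r of 0.989 to 0.996, and pairs of a RECQL5 array with WT had r of 0.917 to 0.931. Among mating type markers, 5 of 6 *MATa* genes passed the level filter and the 2 measured *MATalpha* genes were split, *STE3* below it on every array and *SAG1* just above it on average. RECQL5 itself was not analysed here.

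A gene was tested in limma where its mean over the 4 arrays reached log2(600), which is 9.23, and it was called where the Benjamini-Hochberg adjusted p was at most 0.1 and the change at least 1.5-fold (0.58 on the log2 scale). Of the 39 members 26 were tested, and 13 lay under the filter, among them 6 of the 8 oxidation enzymes. The tested members were 22 with all 4 arrays at or above the filter level and 4 that passed on their mean. *PEX21* passed only through WT, with all 3 RECQL5 arrays under the level, while *PEX27* and *PEX31* passed only through RECQL5, with WT under it. *TES1* had 1 of its 3 RECQL5 arrays just under the level.

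Of the 26 tested members, *PEX21*, *TES1* and *PEX11* fell and *PEX31* rose in RECQL5 cells, where 7.8% of all tested genes were called lower and 9.59% higher. No share is read from these counts, since the changes of *PEX21* and *PEX31* themselves decided that these genes passed the filter. All 4 were also called, in the same direction, in the fit with no level filter, where all 39 members were tested (adjusted p = 0.00257 for *PEX21*, 0.00306 for *TES1*, 0.00381 for *PEX11* and 0.00682 for *PEX31*, limma). The member with the largest fall, *PEX21*, encodes a co-receptor of matrix protein import, and it was 3.11-fold higher in WT. The median difference over all 39 members was -0.18 on the log2 scale, and over all 5449 genes it was 0.03.

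**Figure D1:**
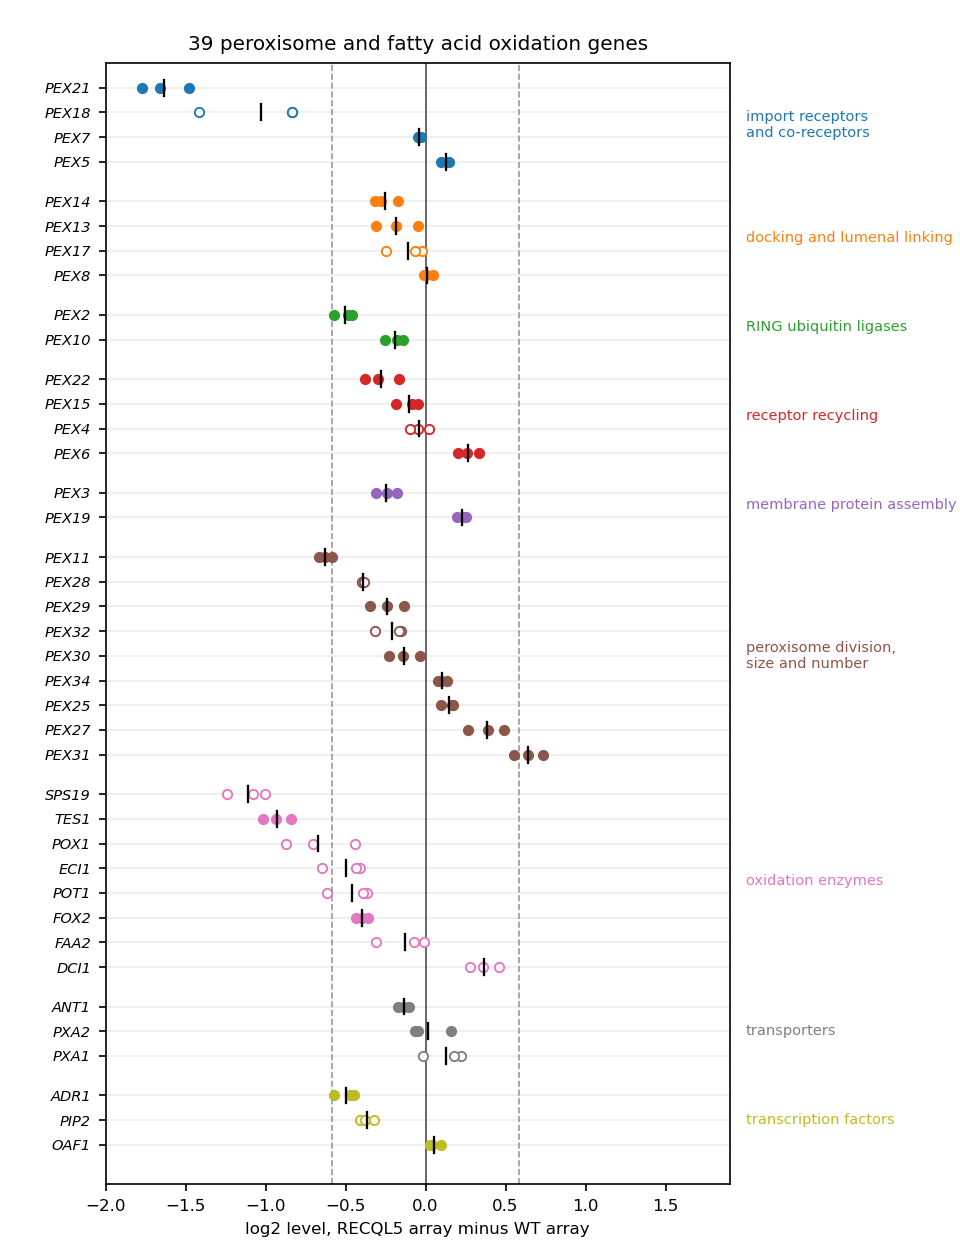
Each point is the log2 level on 1 RECQL5 array minus that on the WT array for the 39 members, with 3 points and a black bar for their mean in each row. Filled points are tested genes, open points lie under the level filter, and dashed lines mark 1.5-fold. Most rows lie left of 0, with PEX21 farthest at -1.64 and PEX31 farthest on the other side at 0.64.

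All 3 RECQL5 arrays read below WT for 26 of the 39 members and above WT for 9, with 4 mixed. That is 66.7% and 23.1% of members, against 39.7% and 45.5% of all genes measured. The SD over the 3 RECQL5 arrays ran between 0.006 and 0.337 among members, with a median of 0.076, and over all genes the median was 0.067. The highest SDs were those of *PEX18* (0.337) and *POX1* (0.217), both far under the filter.

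Import begins with soluble receptors. Pex5 binds enzymes with a C-terminal signal and Pex7 those with an N-terminal one, and Pex7 needs Pex18 or Pex21, a related pair of co-receptors with overlapping function. *PEX21* (YGR239C) read 9.02, 9.20 and 8.91 on the RECQL5 arrays, against 10.68 on the WT array. The nearest RECQL5 array lay 1.48 below WT, beside an SD of 0.149 within RECQL5. All 3 RECQL5 arrays were below WT, as for 39.7% of all genes measured. The log2 change was -1.64 ± 0.12 (SE of the fit, adjusted p = 9.04e-04, limma, 3 RECQL5 arrays and 1 WT array). Only the WT array was at the filter level, so *PEX21* was not tested with the filter on every array, and with no filter its adjusted p was 0.00257.

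Its partner *PEX18* (YHR160C) read 4.63, 5.21 and 5.21 in RECQL5 and 6.05 in WT, so all 3 arrays were below WT and RECQL5 replicate 1 was the lowest. At these levels the signal is dim. The 99th percentile of 1747 probe sets outside the *S. cerevisiae* gene table was 5.19 to 5.26 on the 4 arrays, and their 95th percentile was 4.29 to 4.35. *PEX18* was therefore not tested in the main comparison. On each RECQL5 array *PEX18* was below that array's 99th percentile, and in WT it was above it, so its RECQL5 level has only an upper bound. With the percentile put in place of the RECQL5 values, the WT level was at least 1.77-fold higher. The fit with no level filter called *PEX18* lower (adjusted p = 0.029, limma, and 0.016 without RECQL5 replicate 1), with a measured mean of 5.02 in RECQL5.

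The receptors themselves showed small differences. *PEX7* read 10.04, 10.02 and 10.02 in RECQL5 and 10.07 in WT, a difference of -0.04 with a 95% interval of -0.19 to 0.11. *PEX5* read 9.64, 9.68 and 9.70 in RECQL5 and 9.55 in WT, a difference of 0.13 with an interval of -0.03 to 0.28. Neither passed the test (adjusted p = 0.61 for *PEX7* and 0.141 for *PEX5*, limma), and both intervals lie within 1.5-fold. The difference between the changes of co-receptors and receptors was not tested.

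Receptors with cargo dock on Pex13, Pex14 and Pex17, and Pex8 links this complex to the ubiquitin ligases from inside the organelle. *PEX14* read 10.68, 10.57 and 10.54 in RECQL5 and 10.85 in WT, a difference of -0.26 ± 0.08 (adjusted p = 0.0413, limma) that stayed under 1.5-fold. For *PEX13* the difference was -0.18 ± 0.11 (adjusted p = 0.21). *PEX8* differed by 0.01 ± 0.06, and its sign turned after cyclic loess and after median centring. *PEX17*, under the filter on every array, differed by -0.11. None of the 4 docking and linking genes was called.

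The RING ubiquitin ligases mark receptors for recycling. *PEX2* read 10.28, 10.16 and 10.25 in RECQL5 and 10.73 in WT. The 3 RECQL5 arrays did not overlap WT, and the difference of -0.51 ± 0.07 (adjusted p = 0.00346, limma) left the WT level 1.42-fold that of RECQL5, just under the size needed for a call. *PEX10*, which encodes another ligase of that complex, differed by -0.19 ± 0.07 (adjusted p = 0.0687).

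Pex4 is the ubiquitin-conjugating enzyme for the receptor and Pex22 its membrane anchor, while the ATPase Pex6 and its anchor Pex15 pull the receptor out. These 4 genes went both ways in small steps. *PEX22* read 10.17, 10.03 and 9.96 in RECQL5 and 10.33 in WT (-0.28 ± 0.10, adjusted p = 0.0538, limma). *PEX6* read 9.80, 9.74 and 9.88 in RECQL5 and 9.54 in WT (0.27 ± 0.08, adjusted p = 0.0304). *PEX15* differed by -0.10 and *PEX4*, under the filter, by -0.04, and for *PEX4* the RECQL5 arrays lay on both sides of WT.

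Pex19 carries new membrane proteins to Pex3 at the peroxisome. *PEX19* read 10.60, 10.66 and 10.64 in RECQL5 and 10.40 in WT, a difference of 0.23 ± 0.06 (adjusted p = 0.0267, limma). *PEX3* read 9.97, 10.03 and 9.90 in RECQL5 and 10.21 in WT, a difference of -0.25 ± 0.08 (adjusted p = 0.0391). Both stayed under 1.5-fold, in opposite directions. Over the 16 import factors the median difference was -0.15, with 1 of 13 tested genes called lower and 0 higher. Of all tested genes, 7.8% were called lower and 9.59% higher. The 1 import factor called was *PEX21*, which passed the filter only through WT, so no share is read from this count.

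Among genes for peroxisome division, size and number, the one that fell was *PEX11* (YOL147C), whose product elongates the membrane before fission and is among the most abundant peroxisomal membrane proteins. *PEX11* read 10.86, 10.90 and 10.82 in RECQL5 and 11.49 in WT. The SD over the RECQL5 arrays was 0.042, and none overlapped WT. The change was -0.63 ± 0.07 (adjusted p = 0.00154, limma), and the WT level was 1.54-fold that of RECQL5. *PEX11* was the 1 called member that was at or above the filter level on all 4 arrays.

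*PEX25* and *PEX27* encode proteins related to Pex11, and their RECQL5 arrays lay above WT. *PEX27* read 9.44, 9.54 and 9.31 in RECQL5 and 9.05 in WT (0.38 ± 0.10, adjusted p = 0.0239, limma), and *PEX25* differed by 0.14 ± 0.07 (adjusted p = 0.115). *PEX34*, also known from the control of peroxisome number, differed by 0.10 ± 0.06 (adjusted p = 0.209). None of these 3 reached 1.5-fold.

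*PEX30*, *PEX31* and *PEX32* form a family of related membrane proteins that limit peroxisome size and number. *PEX31* (YGR004W) read 9.61, 9.71 and 9.53 in RECQL5 and 8.98 in WT, where it lay under the filter level. It rose by 0.64 ± 0.09 (1.56-fold, adjusted p = 0.00308, limma), and with no filter its adjusted p was 0.00682. With the filter on every array it was not tested, and no member was called higher. *PEX30* read 10.18, 9.98 and 10.07 in RECQL5 and 10.21 in WT, a difference of -0.13 with a 95% interval of -0.37 to 0.10. *PEX32*, under the filter on the mean, differed by -0.21. The difference among the 3 changes was not tested. The related *PEX28* and *PEX29* differed by -0.39 and -0.24, and for both all 3 RECQL5 arrays lay below WT. *PEX28* was under the filter. Over the 9 genes of division, size and number the median was -0.13, with 1 of 7 tested genes higher and 1 lower. Of all tested genes, 9.59% were called higher and 7.8% lower. No share is read from this count either, since *PEX31* passed the filter only through RECQL5.

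**Figure D2:**
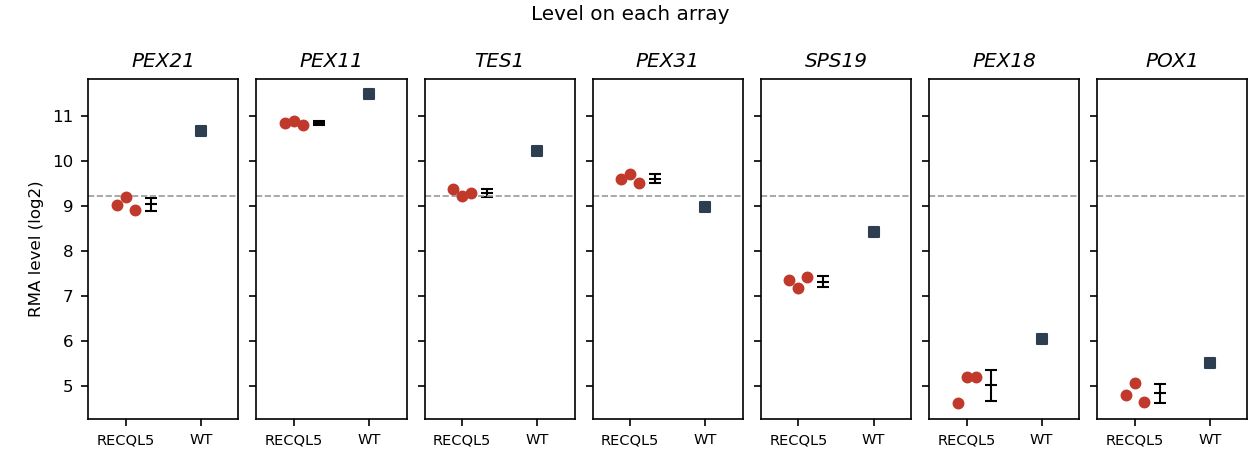
RMA log2 levels of the 4 called members and of the 3 called only with no level filter (SPS19, PEX18 and POX1). Red points are the 3 RECQL5 arrays with their mean and SD beside them, the square is the single WT array, and the dashed line is the filter level of 9.23. PEX31 alone has its RECQL5 arrays above WT.

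The oxidation enzymes lay lower in RECQL5 as a group than the import factors. For 7 of the 8, all 3 RECQL5 arrays were below WT, as for 39.7% of all genes measured, and the median difference was -0.48. On the separate RECQL5 arrays that median was -0.39, -0.44 and -0.54, against -0.11, -0.12 and -0.21 for the import factors. Both are descriptions without a test, and 6 of the 8 enzymes were under the filter on every array, where levels are low in glucose cultures.

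*TES1* (YJR019C) encodes the peroxisomal acyl-CoA thioesterase, which releases fatty acids from coenzyme A. It read 9.39, 9.22 and 9.30 in RECQL5 and 10.23 in WT. Every RECQL5 array was at least 0.84 below WT, beside an SD of 0.088 within RECQL5. *TES1* fell by 0.93 ± 0.09 on the log2 scale (adjusted p = 0.00114, limma), and the WT level was 1.91-fold that of RECQL5.

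*FOX2*, the multifunctional enzyme of the middle steps of each round, read 9.88, 9.84 and 9.80 in RECQL5 and 10.24 in WT. The groups did not overlap, and the difference of -0.40 ± 0.06 (adjusted p = 0.00517, limma) put WT at 1.32-fold the RECQL5 level, under the size for a call. *POX1*, the acyl-CoA oxidase of the first step, read 4.81, 5.07 and 4.64 in RECQL5 and 5.51 in WT. All 3 RECQL5 values of *POX1* were below the 99th percentile of probe sets outside the *S. cerevisiae* table on the same arrays, and the WT value was above it. With that percentile in place of the RECQL5 values, the WT level of *POX1* was at least 1.22-fold higher, a bound under 1.5-fold. *POT1*, the thiolase of the last step, read 5.94, 5.69 and 5.92 in RECQL5 and 6.31 in WT. *FOX2* alone of the 3 core steps was at a level that allowed the main test.

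Auxiliary enzymes handle double bonds that the core steps cannot. *SPS19* (YNL202W), the dienoyl-CoA reductase gene, read 7.35, 7.19 and 7.42 in RECQL5 and 8.43 in WT, the widest gap among the enzymes at 1.01 between WT and the nearest RECQL5 array. *ECI1*, the enoyl-CoA isomerase gene, read 8.20, 8.17 and 7.96 in RECQL5 and 8.60 in WT. Its homolog *DCI1* went against the other 7 enzymes, at 7.29, 7.39 and 7.21 in RECQL5 and 6.94 in WT. *FAA2*, a peroxisomal acyl-CoA synthetase gene, read 9.11, 9.04 and 8.80 in RECQL5 and 9.11 in WT, where RECQL5 replicate 1 was level with WT and replicate 3 was the lowest.

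With no level filter all 39 members were tested, and 6 passed the call rule lower and 1 higher, against 8.59% and 10.3% of all 5449 genes. Beside the 4 called above these were *SPS19* (-1.11 ± 0.11, adjusted p = 0.00316, limma), *PEX18* and *POX1* (adjusted p = 0.0306). The last 2 have only the bounds given above, and the *POX1* call was lost without RECQL5 replicate 3 (measured difference -0.57, under 1.5-fold). Over the 37 members above the 99th percentile in both groups, 4 were called lower and 1 higher. These shares are 10.8% and 2.7%, against 8.72% and 10.1% of all genes above it in both groups, a choice made after seeing the data. With the filter applied to every array, *PEX11* alone of the 4 was tested, and it was still called lower.

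**Figure D3:**
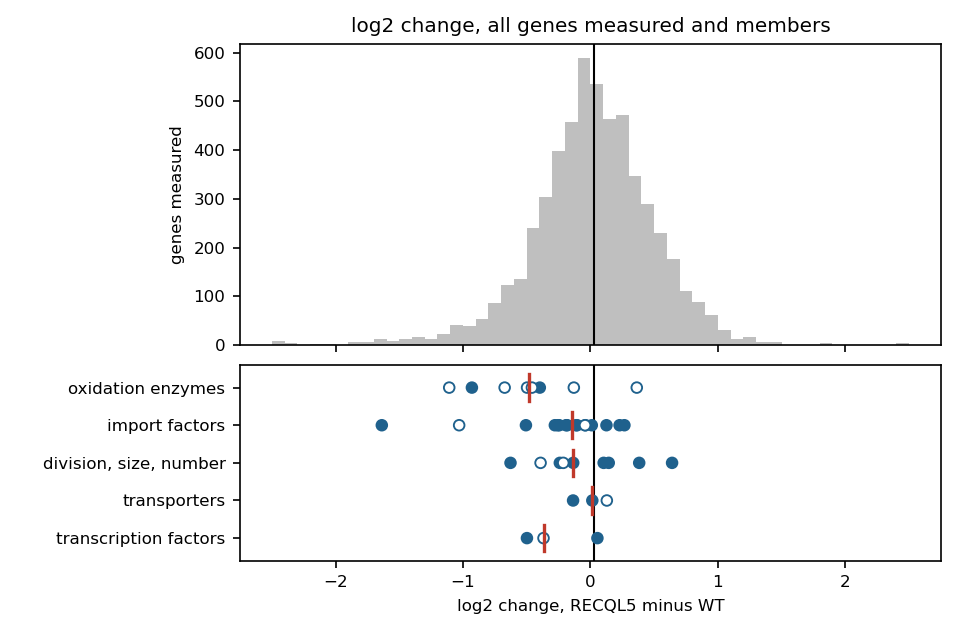
Top, histogram of the log2 change (RECQL5 minus WT) of all 5449 genes, with values beyond the axis put in the end bins and a black line at the median of 0.03. Bottom, each member as a point (filled, tested; open, under the level filter) with a red bar at the group median, which is -0.48 for oxidation enzymes and -0.15 for import factors.

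Fatty acids enter the organelle through the ABC transporter made of Pxa1 and Pxa2, and Ant1 exchanges adenine nucleotides for the activation of fatty acids inside. *PXA2* read 9.47, 9.45 and 9.67 in RECQL5 and 9.51 in WT, and *PXA1* 9.29, 9.25 and 9.05 in RECQL5 and 9.07 in WT, so in both the RECQL5 arrays lay on either side of WT. The 95% interval for *PXA2* was -0.25 to 0.28. *ANT1* differed by -0.14 ± 0.06 (adjusted p = 0.124, limma). No transporter was called.

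Of the activators, *ADR1* read 9.42, 9.29 and 9.39 in RECQL5 and 9.87 in WT, without overlap. Its difference of -0.50 ± 0.07 (adjusted p = 0.00411, limma) corresponds to a WT level 1.41-fold that of RECQL5 and was also too small for a call. *PIP2* read 8.63, 8.67 and 8.72 in RECQL5 and 9.04 in WT, under the filter, while *OAF1*, its partner in the oleate-responsive activator, differed by 0.05 with a 95% interval of -0.11 to 0.22.

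Genes beside the set in the same pathways gave a mixed picture. Among 15 other genes for peroxisomal matrix proteins, 3 of 9 tested fell and 0 rose, where 7.8% of all tested genes were called lower and 9.59% higher, and with no filter 5 of the 15 were called lower and 1 higher (8.59% and 10.3% of all genes). The median over the 15 was -0.41. The 3 tested genes that fell were *LYS1* (-2.38 ± 0.08), the saccharopine dehydrogenase gene, *GPD1* (-0.76 ± 0.12), the glycerol 3-phosphate dehydrogenase gene, and *PNC1* (-0.65 ± 0.08), the nicotinamidase gene. All 3 act outside fatty acid oxidation, in lysine, glycerol and NAD metabolism. Of 10 genes for inheritance, fission and pexophagy, 0 of 5 tested were called, where 7.8% of all tested genes were called lower and 9.59% higher. The 2 tested genes of that list with the largest differences were *VPS1* (-0.22) and *DJP1* (0.20). Without the filter *MDV1* was called higher and *ATG36* lower, 1 of 10 genes each way. These counts are near the 10.3% and 8.59% of all genes called higher and lower with no filter. Of 7 carnitine shuttle and acyl-CoA synthetase genes, *FAA3* (0.59 ± 0.06) was the 1 of 4 tested that rose, and 0 fell. Of all tested genes, 9.59% were called higher and 7.8% lower. With no filter 2 of the 7 were called higher and 0 lower, against 10.3% and 8.59% of all genes. The median over the 7 was 0.245, with all 3 RECQL5 arrays above WT for 4 genes, below for 1 and mixed for 2. Of all genes measured, 45.5% had all 3 RECQL5 arrays above WT and 39.7% below.

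Because glucose represses the oxidation genes, regulators and other targets of that repression are given beside them. Of 17 genes for the Snf1 kinase and glucose repression, 1 of 12 tested fell and 0 rose. Of all tested genes, 7.8% were called lower and 9.59% higher, so the count of falls is near the share of all genes. The gene that fell was *SIP2* (-0.69 ± 0.09), which encodes a beta subunit of the kinase, and the median over the 17 was 0.04. *SNF1* itself differed by -0.03 ± 0.06 (adjusted p = 0.726, limma). Of 16 measured glucose-repressed genes outside the peroxisome, 3 of 9 tested fell, namely *CYB2* (-1.40 ± 0.20), *ICL2* (-0.80 ± 0.06) and *ALD4* (-0.67 ± 0.11), and 0 rose, against the same 7.8% and 9.59% of all tested genes. With no filter 4 of the 16 were called lower and 0 higher. Their median was -0.26, and 11 of the 16 had all 3 RECQL5 arrays below WT, with 1 above it and 4 mixed, where 39.7% of all genes were below and 45.5% above. The part of growth state in the values of these genes and of the oxidation enzymes was not tested.

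**Figure D4:**
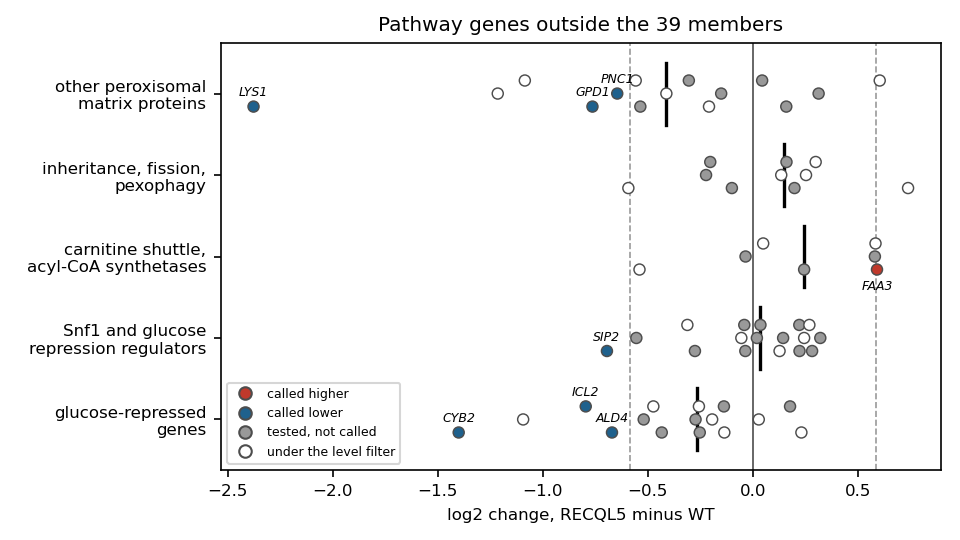
Log2 change (RECQL5 minus WT) of genes in 5 pathway lists outside the 39 members, with a black bar at each list's median and dashed lines at 1.5-fold. Called genes are coloured and named, 3 among other matrix proteins, 3 among glucose-repressed genes and 1 each for FAA3 and SIP2.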

How the data were processed

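Total RNA of 4 cultures was hybridised to Affymetrix Yeast Genome arrays. The authors deposited RMA log2 values, 1 per probe set and array (10928 probe sets). RMA and limma are the tools in the submitters' processing notes, without versions. By the study's methods, published arrays served to standardize WT, and it is not known here whether the WT column holds values from before or after this, which limits how far the groups can be compared. Array titles gave the groups. The source names of 2 RECQL5 arrays spell the protein with another number, while their titles and strains name RECQL5.

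The probe table and the R64 gene table gave 5498 probe sets with 1 gene, reduced to 5449 genes by taking the probe set with the highest mean. RECQL5 minus WT was fitted in limma 3.58.1 (R 4.3.3; lmFit, eBayes, two-sided, 2 residual degrees of freedom) over the 4128 genes that passed the filter, whose level and call thresholds are those of the study. The fit takes WT to vary as much as RECQL5. Intervals use the moderated degrees of freedom. All members are named, and of the other lists the called genes with the largest change, up to 4, or else 2 tested genes. Genes named outside this rule (*SNF1*, *STE3*, *SAG1*, *MDV1*, *ATG36*, *SPS18* and other neighbours) were chosen after their values were seen. The members and lists were chosen with earlier results of these data known. On 10 simulated data sets of 4128 genes the procedure called 43.2% of genes changed 1.5-fold, which lie at the call threshold, and 94.8% of those changed 2-fold. A median of 3 unchanged genes were called. The simulated WT array had the spread of the RECQL5 arrays and no trait of its own. These figures therefore do not cover a trait of the single WT culture. No coordinates or sequences are given. The number of arrays limits the precision.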

Additional observations from a re-analysis of the deposited data

How the results depend on the processing

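The normalization (cyclic loess, median centring), the level filter, the choice of probe set, shared probe sets, the variance model, a stricter adjusted p of 0.01 and each RECQL5 replicate were varied. *PEX21* (-1.72 to -1.57), *TES1* (-0.98 to -0.89) and *PEX31* (0.59 to 0.69) kept direction and call in all 9 alternatives that tested them, and *PEX11* (-0.66 to -0.61) in all 10. Apart from the fit with no filter, those 9 used a filter on the mean level. *PEX21* passed the main filter only through WT and *PEX31* only through RECQL5. The filter on every array left *PEX21*, *TES1* and *PEX31* untested. Members called lower numbered 3, against 6 with no level filter and 1 with the filter on every array, and members called higher numbered 1, against 0 with the filter on every array, because fewer genes were tested there. Among uncalled members, *PEX8* turned to -0.031 after cyclic loess and -0.001 after median centring and ranged over -0.006 to 0.023 with 1 RECQL5 replicate left out (lowest without replicate 3), and *PXA2* turned to -0.032 after cyclic loess and ranged over -0.057 to 0.057 (lowest without replicate 3). The median of the import factors was -0.15, and -0.20 after cyclic loess; the cause was not tested. Level filters do not enter these medians. In fits with no filter combined with each of the other choices, chosen after seeing the data, *SPS19* and *PEX18* were called in 8 of 8 and *POX1* in 7 of 8. Counting only genes above the 99th percentile of other probe sets in both groups, also chosen after seeing the data, left 4 members lower and 1 higher with no filter. WT could not be left out, having 1 array. No paired analysis was possible because RECQL5 and WT share 1 replicate number. Without array detection calls, dim probe sets such as those of *POX1* and *PEX18* were judged only by the percentiles given above.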

Other observations

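The gene next to *SPS19* in the R64 gene table, *SPS18* (YNL204C), lies on the other strand and is known as a sporulation gene. *SPS18* read 8.58, 8.54 and 8.48 in RECQL5 and 7.29 in WT, a difference of 1.25, while *SPS19* differed by -1.11, so this divergent pair moved apart. Both were under the level filter, and with no filter both passed the test, *SPS18* higher (adjusted p = 0.00199, limma). The contrast was noticed in these data.

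Beside *PEX21*, the neighbour *KEL2* rose by 0.90 (9.84, 9.68 and 9.39 in RECQL5, 8.74 in WT) and the neighbour on its other side, *PFK1*, differed by -0.17. *KEL2* passed the filter only through RECQL5, with WT under the level. The neighbours of *PEX11*, *SPT20* and *PSF3*, differed by -0.14 and 0.56, and those of *PEX31*, *CUL3* and *TFG2*, by 0.20 and -0.07. Of these, *CUL3* was under the filter and not tested, and the others were not called. Of the neighbours of these 3 members, *PFK1*, *SPT20* and *CUL3* differed in the direction of their member. *KEL2*, *PSF3* and *TFG2* differed in the opposite direction. The neighbours that follow also went the same way as their member. *PSY2* beside *SPS19* differed by -0.38, *REC107* beside *TES1* by -0.44 and *CHC1* beside *POX1* by -0.20. Beside *PEX18*, *YAP1801* differed by -0.24 and *TDA11* by -0.625. Only *TDA11* was not tested, and with no filter it was called lower (adjusted p = 0.00334, limma).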
